A study of Mus musculus with 12 samples.

Results

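The genes described here are 10 markers of smooth muscle cells and pericytes, the contractile and supporting cells of the vessel and airway wall: Acta2, Actg2, Myh11, Cnn1, Tagln, Des, Pdgfrb, Cspg4, Notch3 and Rgs5. They were chosen by symbol from the 78298 gene identifiers of the count table. No rule used their values, but earlier results of these data were known. All 10 were among the 22190 genes that passed the filter on low counts. The 12 mouse lung libraries fall into 4 groups of 3 that cross tissue with treatment: normal lung next to the tumour or dissected macroscopic LLC tumour, each from animals given house dust mite (HDM) or VEH. The labels spell out neither VEH nor LLC, and strain, age, dose and schedule are not given in the sources used here. All 12 libraries carry the same batch label, and whether the 3 libraries of a group came from separate animals is not stated, so p-values measure the spread between these libraries, which may be technical.

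Smooth muscle cells contract through actin filaments (Acta2 and Actg2 encode the vascular and enteric smooth muscle actins), a smooth muscle myosin heavy chain (Myh11) and actin-binding proteins such as calponin (Cnn1) and transgelin (Tagln), with desmin (Des) as the intermediate filament. Pericytes wrap capillaries and are recruited by PDGF-B from endothelium through the receptor PDGFRβ (Pdgfrb); the proteoglycan NG2 (Cspg4), the receptor NOTCH3 (Notch3) and RGS5 (Rgs5), a brake on G-protein signalling, are used as their markers. In lung these genes mark airway muscle, arteries, veins and capillary pericytes, and Acta2, Tagln and Pdgfrb are also expressed by activated fibroblasts, so none is exclusive to 1 cell type.

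Total counts ran from 20608682 to 32765364 per library. The labelled tissues were checked by marker genes. Levels are in CPM, the number of counts a gene would have in a library of standard size, with TMM scaling. Summed alveolar markers were 17835 to 44067 CPM in normal libraries against 38.9 to 8919 CPM in tumours. The highest tumour was VEH replicate 2, which also had the highest endothelial sum of the tumours (640 CPM). Of 7 alveolar markers, 1 was called lower in tumours under VEH and 7 under HDM. Of 5 proliferation markers, 5 were higher in tumours under either treatment. Normal pieces differed in what they held. Normal VEH replicate 1 and normal HDM replicate 3, the only libraries whose names end in H1 (a suffix the labels do not explain), had the highest contractile levels. They also had the lowest alveolar sums of the normal libraries (17835 and 25315 against 34723 to 44067 CPM). Their mesothelial sums were the lowest too (4.85 and 76.4 against 208 to 944 CPM). The 5 genes Acta2, Actg2, Myh11, Cnn1 and Tagln summed to 1592 and 1492 CPM there and to 78.8 to 329 CPM in the other 4 normal libraries. The lowest of these sums was that of normal VEH replicate 2, which also had a summed proliferation level of 145 CPM against 25.7 to 38.6 CPM in the other 5 normal libraries, an endothelial sum of 1766 against 3157 to 3750 CPM, and a mesothelial sum of 944 against 4.85 to 494 CPM. The part of these differences in the members' levels was not tested. Cardiac muscle markers, whose list includes no member, summed to 17.98 to 463 CPM in normal libraries and 1.40 to 16.7 CPM in tumours, and skeletal muscle markers to at most 14.1 CPM in any library. The library names also carry a prefix that joins 1 normal with 1 tumour library, and 2 of the 6 prefixes join libraries of different treatment labels: tumour HDM replicate 2 shares its prefix with a VEH normal piece (replicate 2), and tumour VEH replicate 3 shares its prefix with an HDM normal piece (replicate 3). Results are therefore given with and without these libraries.

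The first question was whether the members differ between tumour and normal lung under VEH. Of the 10 members, 4 were lower in tumours and none was higher: Myh11, Tagln, Des and Notch3, by 5.67-fold (Notch3) to 18.3-fold (Myh11). The threshold for a call was 0.05 on the p adjusted by Benjamini-Hochberg over the 22190 genes, from edgeR's quasi-likelihood test. Across all genes tested, 20.6% were called lower, 38.9% were called in either direction, and 28.5% had all 3 tumours below all 3 normal libraries, as these 4 members had. The members' median log2 change was -3.04 and that of all genes -0.11.

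Myh11, the myosin heavy chain, measured 366, 24.6 and 44.7 CPM in the VEH normal pieces, in the order of replicates 1, 2 and 3, while the VEH tumours measured 3.57, 14.4 and 5.72 CPM. Every tumour lay below every normal library, although normal replicate 2 was less than 2-fold above tumour replicate 2. The log2 change was -4.19 ± 1.19 (SE; adjusted p = 0.0192). Tagln, which binds actin and is often called SM22, was at 475, 28.2 and 112 CPM in normal tissue and at 7.56, 25.5 and 10.8 CPM in tumours. Again no library overlapped, and the closest pair was the same as for Myh11. Its log2 change was -3.81 ± 1.02 (adjusted p = 0.0155).

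Des was at 266, 28.4 and 68.5 CPM in normal VEH libraries and at 6.63, 16.6 and 6.92 CPM in the tumours. The groups did not overlap, and the log2 change was -3.59 ± 0.88 (adjusted p = 0.0103). Desmin is also made by heart muscle, whose 8 markers summed to the levels given above; 2 of the 7 that were tested were called lower under VEH and 6 under HDM, and their part in Des was not tested. Notch3, a receptor that smooth muscle and pericytes need to mature, was the member with the smallest p: it was at 92.4, 31.9 and 54.0 CPM in normal tissue and at 10.8, 10.3 and 10.3 CPM in tumours. The 3 tumours were nearly equal and lay below all 3 normal libraries. The log2 change was -2.50 ± 0.48 (adjusted p = 0.00316).

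The other contractile members overlapped between the groups and were not called. Acta2 was at 523, 21.6 and 54.1 CPM in normal VEH libraries and at 25.4, 45.1 and 37.8 CPM in tumours, so that all 3 tumours lay above normal replicate 2. Its log2 change was -2.47 ± 1.09 (adjusted p = 0.0949). Actg2 was at 82.7, 1.64 and 7.24 CPM in normal tissue and at 0.595 to 3.14 CPM in tumours. Cnn1, a regulator of actomyosin, was at 145, 2.71 and 11.3 CPM in normal tissue and at 0.255 to 5.65 CPM in tumours. In both genes tumour VEH replicate 2 lay above normal replicate 2, and for Actg2 tumour VEH replicate 3 (3.14 CPM) did as well. Their log2 changes were -3.78 ± 1.48 for Actg2 (adjusted p = 0.0643) and -4.25 ± 1.76 for Cnn1 (adjusted p = 0.0777).

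Acta2 lies on chromosome 19 from 34217737 to 34232990 on the minus strand (GRCm39, GENCODE M39 annotation), and it is shown here as the member with elements like the CArG box, the site bound by SRF, in its RefSeq promoter window. RefSeq windows of 300 bases (250 before the start site and 50 after; table build GRCm38.p6) were at hand for 6 members: Acta2, Cnn1, Des, Cspg4, Notch3 and Rgs5. A strict CArG box, read on both strands, was in 0 of the 6 and in 1.63% of all 32851 windows. With 1 base of its centre off, a form searched after the strict search found none, it was in Acta2 alone, at 2 places, and in 8.50% of all windows (0.679% held 2 or more). The pieces of 30 bases around the 2 matches, found by exact match at chr19:34232838-34232867 and chr19:34232788-34232817 of GRCm39 (minus strand) and inside an annotated Acta2 exon, are shown with the matching bases in capitals:
Acta2 upstream match: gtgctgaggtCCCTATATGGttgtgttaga
Acta2 downstream match: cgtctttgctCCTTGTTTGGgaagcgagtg
They lie 84 to 75 and 34 to 25 bases before the RefSeq start site. TGGGAA, the core bound by RBPJ, overlapped the downstream match and was in Acta2 alone among the 6 members and in 25.6% of all windows. The E-box CANNTG was in 4 of the 6 and in 72.3% of all windows. A match describes letters only, and a window without one says nothing of the factor.

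Among the pericyte genes, Pdgfrb was at 124, 26.7 and 47.0 CPM in normal VEH libraries and at 67.0, 28.0 and 40.6 CPM in tumours. The tumours lay within the normal range, and the log2 change was -0.54, with a 95% interval from -2.15 to 1.06 (adjusted p = 0.569). Cspg4 was at 31.2, 4.66 and 7.33 CPM in normal tissue and at 6.54, 3.64 and 3.32 CPM in tumours, overlapping through the first tumour (log2 change -1.67 ± 0.73; adjusted p = 0.091). Rgs5 was at 9.86, 7.80 and 28.4 CPM in normal tissue and at 16.5, 11.0 and 9.14 CPM in tumours. Its tumours lay inside the normal range too, and the interval of its log2 change, -1.52 to 0.86, included 0 (adjusted p = 0.644).

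Des and Notch3 were called lower under every alternative run, among them the fits without the libraries of conflicting prefix and without the H1 libraries. Normal VEH replicate 1 carried much of the distance for the contractile genes: without it, Myh11 was -2.13 (adjusted p = 0.0999) and Tagln -2.25 (adjusted p = 0.0677), and 2 members and 27.1% of all genes were called. The uncalled changes were then -0.067 for Acta2, -1.33 for Cnn1 and -0.41 for Cspg4. Without normal VEH replicate 2, the lowest normal VEH library for all 10 members, 7 members and 37.8% of all genes were called. Without tumour VEH replicate 1, 2 members and 24.7% of all genes were called, and without tumour VEH replicate 3, 2 and 25.7%. Without the 4 libraries of conflicting prefix, 3 members and 25.0% of all genes were called. Myh11 was the call lost there (adjusted p = 0.0659), and it was also lost with a block for name prefix (adjusted p = 0.086), with a block for replicate number (adjusted p = 0.0739) and with no filter on low counts (adjusted p = 0.0742). Tagln was lost with the replicate block (adjusted p = 0.0594) and with no filter (adjusted p = 0.0614).

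**Figure D1:**
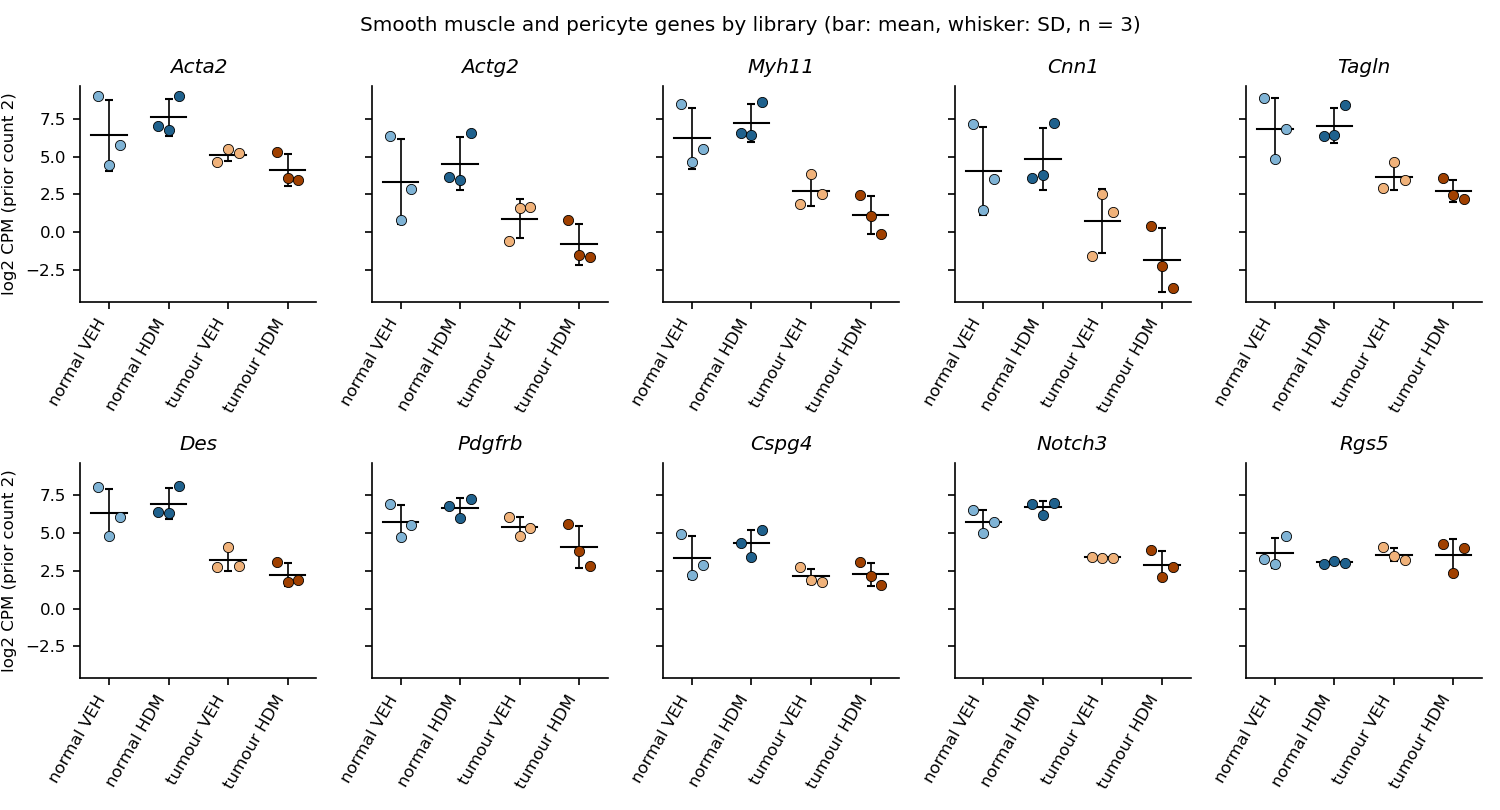
Level of each of the 10 members in each library (vertical axis, log2 CPM) by group (horizontal axis); points are libraries, and bars are the mean and SD of the 3 libraries. Myh11, Tagln, Des and Notch3 are lower in all 6 tumours than in the normal libraries of the same treatment, and Rgs5 is not.

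Under HDM, 9 of the 10 members were lower in tumours than in normal lung, and in each of the 9 every tumour lay below every normal library. Rgs5 was the exception. Across all genes, 28.9% were called lower, 51.9% were called in either direction, and 33.5% had all tumours below all normal libraries. The members' median log2 change was -4.09, and that of all genes -0.08. Falls ran from 4.30-fold (Cspg4) to 70.9-fold (Myh11), apart from Cnn1, whose tumour counts were near 0. With each library left out in turn, the log2 change ran from -6.93 to -4.91 for Myh11 and from -2.52 to -1.46 for Cspg4, the smallest sizes coming without normal HDM replicate 3 and the largest without tumour HDM replicate 1.

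Myh11 measured 92.7, 84.8 and 401 CPM in the normal pieces (replicates 1, 2 and 3) and 5.34, 2.05 and 0.849 CPM in the HDM tumours. Its log2 change was -6.15 ± 1.31 (adjusted p = 0.00339). Acta2 was at 130, 108 and 514 CPM in normal tissue and at 40.0, 11.8 and 11.0 CPM in tumours, with tumour replicate 1 well above the other two. The log2 change was -3.58 ± 1.15 (adjusted p = 0.0235).

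Tagln was at 82.5, 85.3 and 335 CPM in normal HDM libraries against 11.8, 5.53 and 4.49 CPM in tumours. Des was at 85.2, 79.7 and 279 CPM against 8.62, 3.28 and 3.64 CPM. In both genes tumour replicate 1 was the highest tumour, as it was for Acta2 and Myh11. The log2 changes were -4.53 ± 1.06 for Tagln (adjusted p = 0.00544) and -4.84 ± 0.93 for Des (adjusted p = 0.00203).

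Actg2 was at 12.5, 10.7 and 92.7 CPM in normal tissue and at 1.64, 0.273 and 0.243 CPM in tumours (log2 change -5.78 ± 1.64; adjusted p = 0.0137). Cnn1 was at 12.0, 13.7 and 150 CPM in normal tissue, and its tumour levels rested on 31, 4 and 0 counts. A count of 0 in tumour HDM replicate 3 allows a level of up to 0.091 CPM, from counting error alone and with independent counts. This limit is higher if both reads of a pair were counted. The fitted log2 change of -7.04 ± 2.06 (adjusted p = 0.0159) therefore has no firm size.

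Notch3 was at 120, 74.7 and 126 CPM in normal HDM libraries and at 14.5, 4.27 and 6.67 CPM in tumours. The lowest normal library lay far above the highest tumour, and the H1 library did not stand apart from normal replicate 1. Its log2 change, -3.66 ± 0.50, had the smallest adjusted p of the members (0.000346). Pdgfrb was at 113, 63.5 and 153 CPM in normal tissue and at 48.1, 14.1 and 6.91 CPM in tumours (log2 change -2.25 ± 0.76; adjusted p = 0.0289). Cspg4 was at 20.2, 10.8 and 36.5 CPM against 8.46, 4.37 and 2.85 CPM (log2 change -2.11 ± 0.74; adjusted p = 0.0343). For both, tumour replicate 1 came close to normal replicate 2.

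Rgs5 stood at 7.70, 8.99 and 8.18 CPM in normal HDM libraries and at 19.0, 5.05 and 16.4 CPM in tumours. Here 2 tumours lay above and 1 lay below all normal libraries. The log2 change was 0.70, with a 95% interval from -0.50 to 1.90 (adjusted p = 0.301).

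Myh11, Tagln, Des and Notch3 were called under every alternative run for this comparison. They were the 4 members called without normal HDM replicate 3 (46.5% of all genes), and also without tumour HDM replicate 2 (44.3%). Without tumour HDM replicate 3, 5 members and 42.5% of all genes were called. Without the 4 libraries of conflicting prefix, 4 members were called, and 37.9% of all genes.

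**Figure D2:**
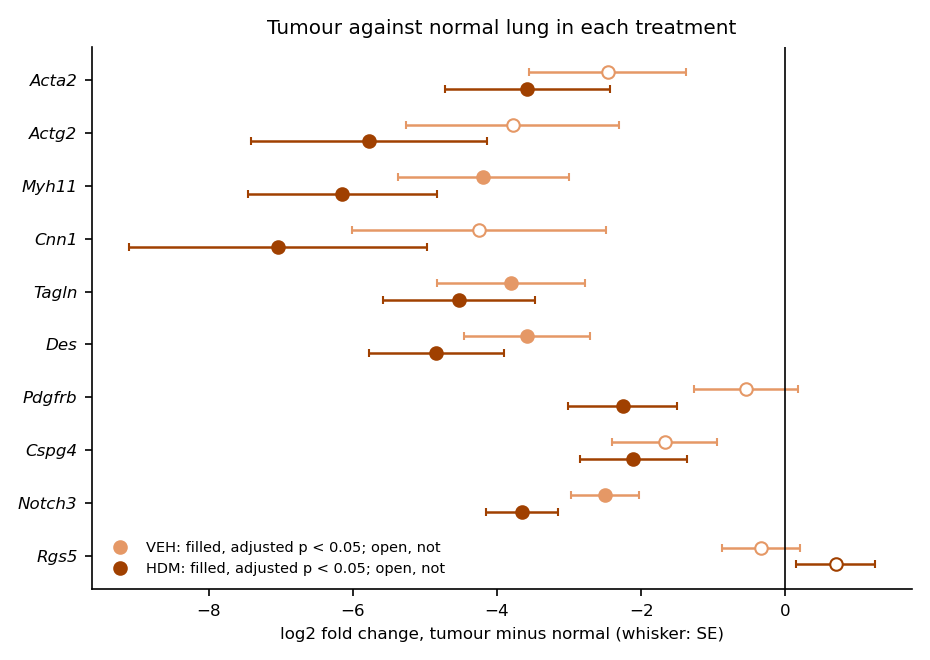
Fitted log2 change of each member, tumour minus normal, under VEH and under HDM (horizontal axis; 0 is no difference), with its SE as a line; filled points were called and open ones were not. All 9 members other than Rgs5 are filled and below 0 under HDM, and Myh11, Tagln, Des and Notch3 are filled under VEH.

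In bulk tissue, fewer cells of a type and less RNA per cell cannot be told apart, and other cell types moved with the members. All 10 endothelial markers (Pecam1 and Cdh5 among them) were called lower in tumours in both comparisons. Their summed level was 1766 to 3750 CPM in normal libraries, 384 to 640 CPM in VEH tumours and 120 to 355 CPM in HDM tumours, with none of the 10 at 0 in any library. Activated fibroblast markers summed to 903 to 2303 CPM in normal libraries and 3137 to 10842 CPM in tumours. Under either treatment, Col3a1, Fap and Lrrc15 were called higher in tumours and Col1a2, Pdpn and Cthrc1 lower, with Thy1 lower under HDM as well. Col3a1 had the highest average log2 CPM of the list, 12.1, with Col1a1 next at 7.95, so the sums rest largely on Col3a1. The list's median log2 change was -0.22 under VEH and -1.63 under HDM. Airway epithelial markers summed to 20278 CPM in tumour VEH replicate 2, which had the highest contractile sum of the tumours (93.6 CPM), and to 3.64 CPM in tumour HDM replicate 3, which had the lowest (16.6 CPM). The part of these lists in the members' levels was not tested.

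Ratios between members within a library do not depend on library scaling. They were computed per base of deposited gene length, were chosen after the levels had been seen, and are given as a description. Per unit of Acta2, tumours held less Myh11: the Myh11 to Acta2 ratio was 0.203 to 0.329 in the 6 normal libraries, the H1 libraries included, and 0.0224 to 0.0924 in the 6 tumours. The highest normal ratio was 1.62 times the lowest, and no tumour reached the normal range. The Des to Acta2 ratio was 0.297 to 0.769 in normal libraries and 0.107 to 0.215 in tumours. The Tagln to Acta2 ratio was 0.702 to 2.28 in normal libraries and 0.316 to 0.625 in tumours, also without overlap. The ratios of the other members to Acta2 overlapped. Actg2 was at 0.107 to 0.254 in normal libraries and 0.0312 to 0.117 in tumours. Cnn1 was at 0.0742 to 0.235 and 0 to 0.101. Pdgfrb, Cspg4, Notch3 and Rgs5 per Acta2 overlapped too. All of these ratios share the denominator Acta2, which in GENCODE M39 has 301 exon bases in common with Stambpl1 on the other strand. Stambpl1 was at 5.89 to 12.6 CPM in normal libraries and 30.1 to 44.7 CPM in tumours, and its part in these ratios was not tested.

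Per unit of Myh11, tumours held more Pdgfrb, at 2.69 to 26.1 against 0.469 to 1.69 in normal libraries. Rgs5 per Myh11 was 1.28 to 32.2 in tumours against 0.0341 to 1.06. Notch3 did not follow Pdgfrb: the Notch3 to Pdgfrb ratio was 0.506 to 0.811 in normal libraries and 0.109 to 0.250 in 5 tumours, while tumour HDM replicate 3 was at 0.653. Per unit of the endothelial gene Pecam1, Notch3 had overlapping ranges, 0.0678 to 0.174 in normal libraries and 0.0625 to 0.174 in tumours. Rgs5 per Pecam1 was 0.0184 to 0.0634 in normal libraries and 0.118 to 0.760 in tumours, with no overlap. The Pecam1 ratios of Acta2, Myh11, Des, Pdgfrb and Cspg4 overlapped. Pecam1 itself was at 297 to 614 CPM in normal libraries and 29.5 to 127 CPM in tumours, and Myh11 was also lower there. A gene that did not change would thus have higher ratios to Myh11 or Pecam1 in tumours. The higher ratios of Pdgfrb and Rgs5 therefore do not show that either gene rose.

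**Figure D3:**
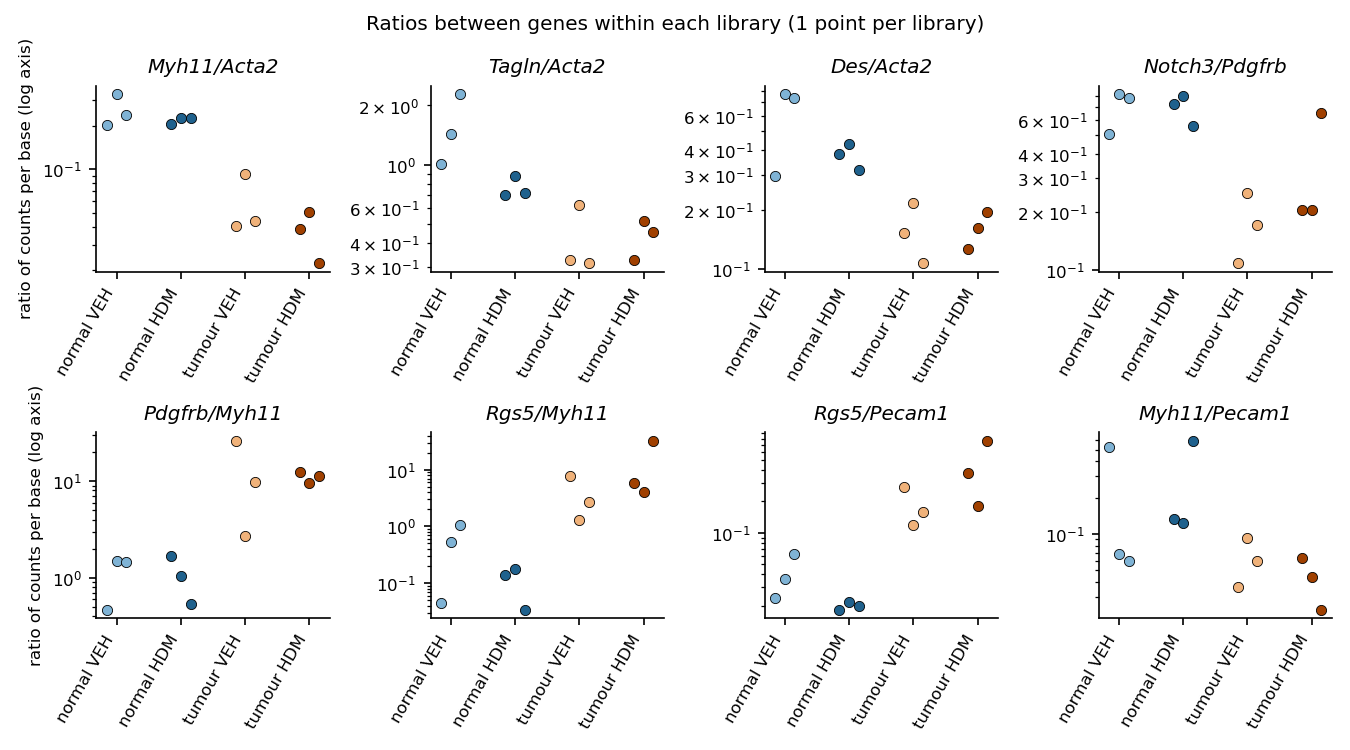
Ratios between members, or between a member and Pecam1, in each library (vertical axis, ratio of counts per base, log scale; points are libraries, coloured by group). The Myh11 to Acta2 ratio is 0.203 to 0.329 in normal libraries and 0.0224 to 0.0924 in tumours.

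The comparison of HDM with VEH asks whether the allergen changed the members within a tissue. In normal lung, 0 of 10 members were called, and 0 of 22190 genes (0% of all genes) were called. None of the members had an unadjusted p below 0.05, as against 5.54% of all genes. The largest estimate in either direction was that of Rgs5, -0.89 with an interval of -2.09 to 0.31. Rgs5 was at 28.4 CPM in normal VEH replicate 3 and at 7.70 to 9.86 CPM in the other 5 normal libraries. Notch3 had the smallest p (log2 change 0.85 ± 0.45; unadjusted p = 0.0888, adjusted p = 0.888), with means of 107 ± 28.0 CPM under HDM and 59.5 ± 30.6 CPM under VEH (SD, n = 3 each).

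For the contractile genes these libraries set wide limits. Acta2 was 250 ± 228 CPM in normal HDM and 199 ± 280 CPM in normal VEH libraries (SD, n = 3 each), and the interval of its log2 difference was -1.96 to 2.62. The H1 library of each group held most of this spread. Myh11 had an interval of -1.89 to 2.71 and Pdgfrb one of -0.87 to 2.34, so changes of several-fold in either direction were not detectable in the contractile members. DESeq2's Wald test called 0 members here, between HDM and VEH tumours, and in the interaction, where it called 0.172%, 6.02% and 0.989% of all genes.

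In tumours, 0 of 10 members were called between HDM and VEH, and 0.0946% of all genes were called. None had an unadjusted p below 0.05, as against 16.7% of all genes. In 8 of the 10 members the estimate was negative, from -0.31 (Notch3) to -2.65 (Cnn1), and their libraries overlapped. With a block for name prefix 7 of these 8 were positive, Acta2 at 1.35 and Tagln at 1.55 among them, and the members' median was 0.87 in place of -0.97. Mean Myh11 was 2.75 ± 2.32 CPM with HDM and 7.91 ± 5.75 CPM with VEH (SD, n = 3 each; log2 difference -1.54 ± 1.11; adjusted p = 0.508). Pdgfrb was 23.0 ± 22.0 CPM against 45.2 ± 19.9 CPM (adjusted p = 0.528). Cspg4 and Rgs5 had estimates of 0.21 and 0.14.

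The larger falls under HDM were not shown to differ from those under VEH. In the test of the interaction, the tumour-normal difference under HDM minus that under VEH, 0 of 10 members were called, and 0% of all genes. No member reached an unadjusted p of 0.05, which 9.39% of all genes did. The estimate was negative in 9 members and positive in Rgs5 (1.03 ± 0.77; adjusted p = 0.653). Notch3 had the smallest p (-1.15 ± 0.64; unadjusted p = 0.101, adjusted p = 0.569), and Pdgfrb was at -1.71 with an interval of -3.99 to 0.57.

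Ranked by group mean, 9 members had both normal groups above both tumour groups. Normal HDM was the highest group for 8 of these, the exception being Tagln, which was highest in normal VEH. Neighbouring groups in this order overlapped, except that normal VEH lay above tumour VEH for Myh11, Des and Notch3 and normal HDM above tumour VEH for Tagln. Rgs5 had the order normal VEH, tumour HDM, tumour VEH and normal HDM, and the last pair did not overlap. Per kilobase of deposited length, Tagln and Acta2 were the most abundant members in normal VEH tissue, at 103 ± 120 and 90.8 ± 128 CPM per kilobase (SD, n = 3), and Cspg4 the least, at 1.21 ± 1.22. In HDM tumours Acta2 was the highest at 9.53 ± 7.52, followed by Pdgfrb at 4.21 ± 4.01 CPM per kilobase.

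The members belong to larger programmes, which were counted from lists of related genes. Across all genes tested, 20.6% were called lower in VEH tumours and 28.9% in HDM tumours. In either direction, 38.9% and 51.9% were called. Of 18 other contractile genes, 12 were lower and 2 higher in VEH tumours, and 14 were lower and 2 higher in HDM tumours, with medians of -1.92 and -3.66. Lmod1 (leiomodin, which nucleates actin filaments) had log2 changes of -4.62 ± 1.21 under VEH (adjusted p = 0.0142) and -5.82 ± 1.30 under HDM (adjusted p = 0.00422). Mylk, the kinase that starts contraction, had -3.06 and -3.70. The 2 that rose were Cald1, which encodes caldesmon (log2 change 1.53 ± 0.16, adjusted p = 0.000331 under VEH; 2.10 ± 0.17, adjusted p = 7.13e-05 under HDM), and the tropomyosin gene Tpm1 (0.71 and 0.65). Both also have forms outside muscle.

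Of 8 regulators of contractile genes, 5 were lower under either treatment, and 2 were higher under VEH and 1 under HDM. Gata6 had log2 changes of -2.25 under VEH and -1.70 under HDM, and Tbx4, a lung mesenchyme factor, of -2.61 and -2.69. Mrtfa, a partner of the serum response factor SRF, rose, with 1.05 and 1.10. Srf itself was the other regulator called higher under VEH (0.51 ± 0.14; adjusted p = 0.0168), and it was not called higher under HDM. Myocd, the muscle-restricted partner of SRF, was called lower under HDM (adjusted p = 0.0218) and not under VEH (adjusted p = 0.127), at mean tumour levels of 0.0274 CPM with HDM and 0.0923 CPM with VEH. It had no counts in 2 of the 3 tumours of either treatment, and the size of its change is therefore not given.

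Of 14 other pericyte genes, 10 were lower and none higher under VEH (median -2.62), and 11 were lower and 1 higher under HDM (median -3.82). Pdzd2 fell, with log2 changes of -3.45 ± 0.73 and -5.03 ± 0.79, as did Gucy1b1, a subunit of the nitric oxide receptor, with -3.18 and -4.82. Higd1b, a pericyte marker, had -2.26 and -3.37. Ebf1 was the one that rose (1.49 ± 0.42 under HDM; adjusted p = 0.0124); it is also a B cell factor. Rgs5, which was not called, stood beside a list most of whose genes were called lower.

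**Figure D4:**
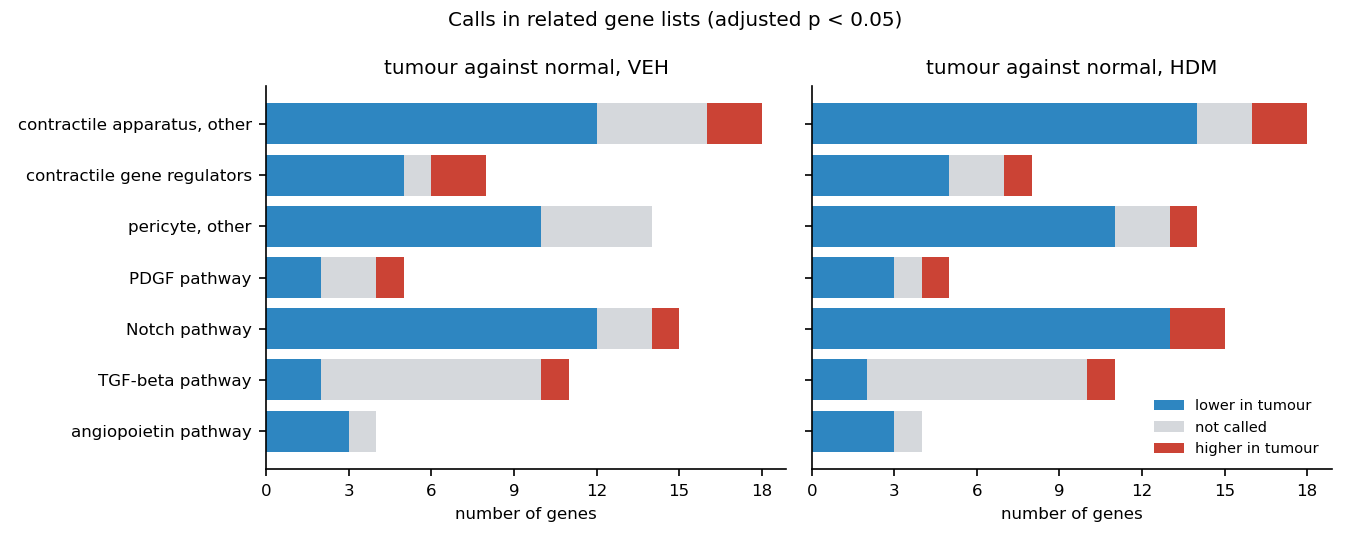
Number of genes in each list of related genes (vertical axis) that were called lower, called higher or not called in tumours against normal lung (horizontal axis, number of genes), under VEH and under HDM. Of 18 other contractile genes 12 and 14 were lower, and of 15 Notch pathway genes 12 and 13. Across all genes tested, 20.6% and 28.9% were called lower.

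The signals that reach these cells were counted in the same way, beside the same shares of all genes. In the PDGF list, 2 of 5 genes were lower and 1 was higher under VEH, and 3 were lower and 1 higher under HDM. Pdgfb, the endothelial ligand of PDGFRβ, was at a mean of 41.1 CPM in VEH tumours and 119 CPM in normal VEH tissue (log2 change -1.53 ± 0.49; adjusted p = 0.0317), and its log2 change under HDM was -2.81 ± 0.51 (adjusted p = 0.00153). Pdgfd, the other ligand of that receptor, had log2 changes of -2.84 and -4.57. Pdgfc, a ligand of PDGFRα, rose, with 2.74 ± 0.82 and 3.33 ± 0.85.

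Of 15 Notch pathway genes, 12 were lower and 1 higher under VEH (median -1.94), and 13 were lower and 2 higher under HDM (median -2.89). The ligand Jag1, which endothelium presents to NOTCH3 on mural cells, had log2 changes of -2.35 and -3.25. The targets Hey2 and Hey1 had -3.09 and -2.65 under VEH and -3.94 and -4.42 under HDM. Heyl, a target in mural cells, was called under HDM (-2.97; adjusted p = 0.0128) and not under VEH (-1.78; adjusted p = 0.0966). Rbpj, the DNA-binding mediator, rose, with 1.91 and 2.21. Of 4 angiopoietin genes, 3 were lower in both comparisons. The largest falls were those of Tek (-3.52 and -5.22) and Tie1 (-2.66 and -3.56), and Tie1 is also on the endothelial list. The ligand Angpt1, which pericytes make, had -2.24 and -2.65. Of 11 TGF-beta genes, 2 were lower and 1 higher in both, with medians of 0.19 and 0.08. No gene of any of these 7 lists was called between HDM and VEH in either tissue, or in the interaction. Across all genes, 0% were called in normal lung, 0.0946% in tumours and 0% in the interaction.

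**Figure D5:**
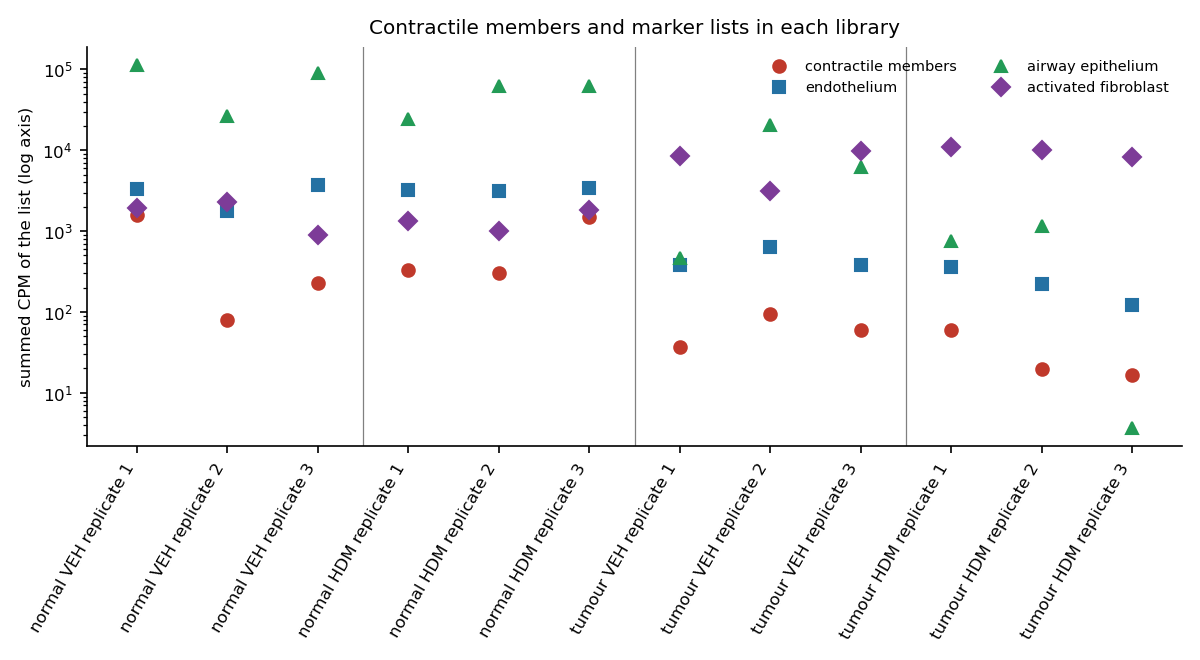
Summed level of the contractile members and of marker lists in each library (vertical axis, summed CPM, log scale; horizontal axis, library). Contractile members reach 1592 and 1492 CPM in the H1 normal libraries and 16.6 to 93.6 CPM in tumours.

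Genes with the most similar pattern to a member were sought over the 12 libraries, by the root mean square difference of mean-centred log2 CPM (prior count 2). For Myh11 these included Jph2 (0.50), Kcnk3 (0.59), Slc36a2 (0.59) and Gdf10 (0.61), among 12290 candidates with a median of 2.81. For Pdgfrb they were the long noncoding RNA Gm41964 (0.39), Rgs2 (0.46), Olfml3 (0.47), Pmepa1 (0.54) and Heyl (0.55), with a candidate median of 1.38. Among the members, Des and Tagln were the most alike (0.29) and Cnn1 and Rgs5 the least (3.44). All points share the same libraries, so these are descriptions.

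In GENCODE M39, some members share exon bases with a gene on the other strand, and how the counting used the strand is not stated. The deposited length equalled that of M39 for 62058 of the 78168 identifiers found there. Acta2 had 2196 bases deposited and 3227 in M39, and Des 3754 and 5144. The shared bases given here may therefore differ in the gene models that were counted. Tagln (chromosome 9, 45840909 to 45847404, minus strand) shares 1241 bases with the long noncoding RNA Gm48529 and 123 with Pcsk7, which had 10296 counts and was at 28.4 to 38.5 CPM in normal libraries and 25.4 to 37.2 CPM in tumours. Gm48529 had 35745 counts over the 12 libraries against 30179 for Tagln, and a ratio per base to Tagln of 0.588 to 0.705 in normal libraries and 0.689 to 1.14 in tumours. Reads of the pair cannot be told apart here, and Tagln is uncertain to that extent. Cnn1 (chromosome 9, 22010512 to 22020926, plus strand) shares 961 bases with Elof1, which had 35128 counts against 8867. Notch3 (chromosome 17, 32339794 to 32385893, minus strand) shares 804 bases with Gm17276, which had 2196 counts against 14327. Acta2 and Actg2 (chromosome 6, 83489887 to 83513551, minus strand) encode near-identical actins, so reads may be split between them. Acta2 also shares 301 bases with Stambpl1, which had 7230 counts against 38981 for Acta2 and was at 5.89 to 12.6 CPM in normal libraries and 30.1 to 44.7 CPM in tumours. In HDM tumours 2 and 3 and in tumour VEH replicate 1 (40.1 against 25.4 CPM) Stambpl1 was above Acta2. The part of Stambpl1 in the tumour level of Acta2 was not tested. Myh11 (chromosome 16, 14012399 to 14109236, minus strand), Pdgfrb (chromosome 18, 61178212 to 61218133, plus strand), Cspg4 (chromosome 9, 56772317 to 56807187, plus strand) and Rgs5 (chromosome 1, 169483036 to 169524887, plus strand) share no exon base with another annotated gene. Des (chromosome 1, 75320511 to 75345223, plus strand) shares 288 bases with Gm15179, which had 16 counts in all.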

How the data were processed

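RNA was measured by paired-end sequencing of libraries from a stranded dUTP workflow, per the labels' protocols. The authors deposited raw counts per Ensembl gene, beside gene lengths in bases, per the file headers. STAR, Subread, featureCounts, Trim Galore and the build mm39 are named in the submitters' processing notes, without versions or roles. Between 4 and 200 counts, 67.4% to 71.2% of the gene values of a library were even, as arises where the 2 reads of a pair are counted separately; how pairs were counted is not stated. Symbols came from GENCODE M39, which held 78168 of the identifiers; the 130 others carried 0.143% of counts.

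Counts were tested in R 4.3.3 with edgeR 4.0.16 (filterByExpr, minimum count 10; TMM; robust quasi-likelihood fit with a coefficient per group over all 12 libraries; two-sided F-tests of 5 comparisons; Benjamini-Hochberg adjustment). Standard errors are the log2 change divided by the square root of F, and 95% intervals use the t quantile at the degrees of freedom of the fit. Folds are those of the fitted log2 change. The script was tested on simulated data. Alternatives were DESeq2 1.42.0 and its size factors, library-size scaling, other filters, only the compared groups, blocks for replicate number and name prefix, removal of the libraries of conflicting prefix, and each library left out; removal of the H1 libraries, alone and with tumour VEH replicate 2, was added after seeing the data. All members are named; from each related list, the 2 called genes with the largest change in each direction and an average log2 CPM of at least 0 may be named, and other related genes were chosen after their values were seen. The members, lists and rules were chosen with earlier results of these data known. 1 of the genes most like Myh11 in pattern is not reported here.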

Additional observations from a re-analysis of the deposited data

How the results depend on the processing

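The number of members called lower in VEH tumours was 4, where the reported fit called 38.9% of all genes (20.6% lower). Shares of all genes here count calls in either direction unless marked lower. The number of members was 2 with no filter on low counts (16.8% of all genes), 8 with DESeq2's Wald test (46.9%) and 2 with a replicate block (35.3%). With each library left out in turn it was 2 to 7 (24.7% to 39.2% of all genes). Under HDM it was 9, where 51.9% of all genes were called (28.9% lower). It was 4 with no filter (25.0%), 4 with a block for name prefix (38.9%) and 4 without the 4 libraries of conflicting prefix (37.9%). With each library left out it was 4 to 9 (42.5% to 46.5% of all genes). Deviations of same-numbered libraries from their group means correlated from -0.36 to 0.28, and those of libraries sharing a name prefix from -0.22 to 0.18. Neither range can show whether replicate numbers or prefixes pair the libraries. No member was called in the other 3 comparisons under any setting, so no sign change there concerned a called value. The cause of these shifts was not tested. Members with few counts (Cnn1, Actg2 and Myh11 in HDM tumours) have the widest limits from depth.

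Medians of the members' log2 changes moved as follows. Under VEH the median was -1.17 without the H1 libraries, -1.64 without these and tumour VEH replicate 2, and -3.52 to -1.16 with each library left out. For HDM against VEH in normal lung it was -1.20 without the libraries of conflicting prefix and -0.73 to 1.76 with each library left out. In tumours it was 0.87 with the prefix block. For the interaction it was 0.41 without the libraries of conflicting prefix and -2.56 to -0.32 with each library left out.

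Single members changed sign where their change was not called. Between VEH tumours and normal lung, Pdgfrb was 0.29 without the H1 libraries, 0.55 without these and tumour VEH replicate 2, and -0.91 to 0.30 with each library left out, and Rgs5 was -0.64 to 0.47. In normal lung, Tagln was 0.057 with the replicate block, 1.05 with the prefix block, 0.26 without the H1 libraries, also with tumour VEH replicate 2 left out, and -1.29 to 1.26 with each library left out. Without the libraries of conflicting prefix, Acta2 was -1.28, Actg2 -1.95, Myh11 -1.21, Cnn1 -2.61, Des -1.02 and Cspg4 -0.30 there. With each library left out, Acta2 was -0.74 to 2.73, Actg2 -1.39 to 3.13, Myh11 -0.71 to 2.47, Cnn1 -2.05 to 3.07 and Des -0.55 to 1.61.

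In tumours, Rgs5 was -0.0077 with the replicate block. With the prefix block Acta2 was 1.35, Actg2 1.12, Myh11 0.70, Cnn1 0.71, Tagln 1.55, Des 1.03 and Notch3 0.091, and Notch3 was 0.019 without the libraries of conflicting prefix. With each library left out, Cspg4 was -0.31 to 0.59, Notch3 -0.95 to 0.021 and Rgs5 -0.21 to 0.53. For the interaction, the prefix block gave 0.50 for Tagln and 0.052 for Cspg4. Without the libraries of conflicting prefix, Acta2 was 0.83, Actg2 1.05, Cnn1 0.35, Tagln 0.80, Des 0.11 and Cspg4 0.47, and with each library left out Tagln was -2.28 to 0.29 and Cspg4 -1.70 to 0.11.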
